A study of Sus scrofa with 24 samples.

Results

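Genes of ion channels were followed in the liver RNAseq data of 24 pigs. The genes were the potassium channel gene KCNB2, the calcium channel gene CACNA1H and the inositol trisphosphate receptor genes ITPR1, ITPR2 and ITPR3. They were taken by symbol from the deposited tables. KCNB2, CACNA1H and ITPR3 were chosen because they were higher in Sustanon-treated than in untreated pigs, and ITPR1 and ITPR2 were added as relatives of ITPR3. Of the 5 genes, 4 had a row among the 13463 genes of the tables, and all 4 passed the filter on low counts that left 8279 genes. ITPR1 was not analysed here.

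Sustanon is a preparation of testosterone esters and Myodin a preparation of nandrolone esters. Both were injected into muscle, Sustanon at 4 mg/kg of body weight in 8 pigs and Myodin at 5 mg/kg in 8 pigs, and a further 8 pigs were untreated. The Sustanon group held 3 castrated boars, 3 sows and 2 uncastrated boars, the Myodin group 2 castrated boars, 3 sows and 3 uncastrated boars, and the untreated group 3 castrated boars, 3 sows and 2 uncastrated boars. All were crossbred fattening pigs kept in a single trial, with 1 liver library per pig, and uncastrated boars, whose testes are a source of testosterone, were in every group. By the paper, each tested group had pens of its own, and the controls were kept in another room. Treatment thus went together with housing, and the part of housing was not tested.

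Counts summed to between 9267780 and 14017276 per library. Liver identity was plain from ALB, the albumin gene of hepatocytes, with a mean of 109615 TPM (a transcript level scaled by gene length). The Y-linked gene EIF1AY went against the labelled sex in 3 untreated libraries, with 1 count in castrated boar 15, 476 in sow 16 and 434 in sow 18. These libraries were kept under their labels, and values without them are given below for several comparisons. In bulk liver, more cells of a type and more RNA per cell cannot be told apart.

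KCNB2 encodes a pore-forming subunit of a delayed rectifier potassium channel, which opens on depolarization and lets potassium leave the cell. CACNA1H encodes the pore of a low-voltage-activated (T-type) calcium channel, best known from nerve, heart and adrenal cells. The ITPR genes encode the receptors that release calcium from the endoplasmic reticulum when hormones raise inositol trisphosphate. In liver the type 2 receptor is known as a main form of hepatocytes and the type 3 receptor as the main form of bile duct cells.

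On the Sscrofa11.1 build used for the deposited data, RefSeq places KCNB2 (ENSSSCG00000006185) at chr4:62877838-63306314, CACNA1H (ENSSSCG00000034266) at chr3:40637420-40694616, ITPR2 (ENSSSCG00000000555) at chr5:46935923-47465681 and ITPR3 (ENSSSCG00000001518) at chr7:29835922-29901305. ITPR1 lies at chr13:61068131-61398918.

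The study designed Real-Time PCR primers for the 3 chosen genes. They are shown because they mark the stretch of each transcript that the study itself followed. All are written 5′ to 3′ in lower case, with no base marked, and range from 16 to 22 bases.
KCNB2 forward: ggtgtgcgacgactacaatctg
KCNB2 reverse: tcccggatggcgatca
CACNA1H forward: tcatcatcgtgggttccttttt
CACNA1H reverse: agaactgcgtggcgatcac
ITPR3 forward: cacgagaaccagacctgcat
ITPR3 reverse: tcgttgagaatcagcgcagt
The GC content of these primers ran from 40.9% for the CACNA1H forward primer to 62.5% for the KCNB2 reverse primer.

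All 4 genes were expressed at low levels. On the TPM scale, ITPR3 had the highest mean over the 24 libraries (6.20), followed by ITPR2 (3.28), KCNB2 (2.62) and CACNA1H (1.84). The rule for reads that fit several similar genes is not given in the sources used here, so that values of ITPR2 beside ITPR3 are uncertain to that extent. Within the untreated group the TPM means were 4.95 for ITPR3, 3.28 for ITPR2, 1.54 for KCNB2 and 1.35 for CACNA1H. With Sustanon they were 7.68, 3.31, 3.63 and 3.38, in the same order of genes, so that KCNB2 and CACNA1H lay below ITPR2 in the untreated pigs and beside it in the treated ones. Values below are CPM, counts scaled to a common library size after TMM normalization, which compare pigs but not genes.

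KCNB2 was low in untreated castrated boars (1.40, 1.82 and 2.32 CPM) and untreated sows (2.63, 1.96 and 1.03 CPM), and reached 5.69 and 2.64 CPM in the untreated uncastrated boars. With Sustanon, castrated boars had 3.14, 5.52 and 3.52 CPM, sows 4.11, 7.43 and 8.31 CPM, and uncastrated boars 3.98 and 10.9 CPM. With Myodin, castrated boars had 4.50 and 5.30 CPM, sows 4.18, 3.34 and 4.78 CPM, and uncastrated boars 4.37, 5.36 and 3.75 CPM. All 8 Sustanon pigs and all 8 Myodin pigs were above every untreated castrated boar and sow, but only 3 Sustanon pigs and 0 Myodin pigs were above untreated boar 25. The means were 5.86 ± 2.76 CPM with Sustanon, 4.45 ± 0.704 with Myodin and 2.44 ± 1.43 in untreated pigs (SD, n = 8 each). The Myodin group was the narrowest, with values from 3.34 to 5.36 CPM.

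CACNA1H had 2.10, 2.61 and 2.53 CPM in untreated castrated boars and 5.96, 4.20 and 3.92 CPM in untreated sows. The untreated uncastrated boars stood well above them at 18.9 and 10.5 CPM. With Sustanon the gene was at 14.4, 7.26 and 9.60 CPM in castrated boars, 7.90, 34.7 and 14.7 CPM in sows, and 15.2 and 29.5 CPM in uncastrated boars. All 8 Sustanon pigs were above every untreated castrated boar and sow, and 2 of them, sow 5 and boar 20, were above both untreated boars. With Myodin it stayed at 3.62 and 4.45 CPM in castrated boars, 3.75, 4.22 and 3.69 CPM in sows, and 2.53, 7.80 and 2.31 CPM in uncastrated boars. Only Myodin boar 23, at 7.80 CPM, was above the untreated castrated boars and sows, and the Myodin boars lay below both untreated boars. The means were 16.7 ± 10.1 CPM with Sustanon, 4.05 ± 1.69 with Myodin and 6.33 ± 5.74 in untreated pigs (SD, n = 8 each).

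ITPR3 was at 21.7, 37.3 and 31.4 CPM in untreated castrated boars and 23.1, 15.6 and 19.3 CPM in untreated sows, against 52.6 and 52.7 CPM in the untreated uncastrated boars. With Sustanon it was at 52.3, 61.2 and 41.0 CPM in castrated boars and 52.9, 70.0 and 49.8 CPM in sows, so that all 6 exceeded every untreated castrated boar and sow. The Sustanon boars, at 34.3 and 40.8 CPM, were below both untreated boars and were the lowest of their treatment group. With Myodin the values were spread widely, at 51.5 and 50.1 CPM in castrated boars, 36.6, 21.1 and 41.0 CPM in sows, and 53.3, 44.8 and 21.0 CPM in uncastrated boars. The means were 50.3 ± 11.6 CPM with Sustanon, 39.9 ± 12.9 with Myodin and 31.7 ± 14.6 in untreated pigs (SD, n = 8 each).

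ITPR2 showed no such grouping. It ranged from 12.8 to 26.7 CPM with Sustanon, from 12.3 to 22.6 CPM with Myodin and from 9.05 to 23.9 CPM in untreated pigs, with medians of 18.3, 19.2 and 20.5 CPM. The untreated boars, at 19.5 and 22.2 CPM, lay inside the range of the other untreated pigs. The ratio of the Sustanon mean to the untreated mean was 1.02.

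**Figure D1:**
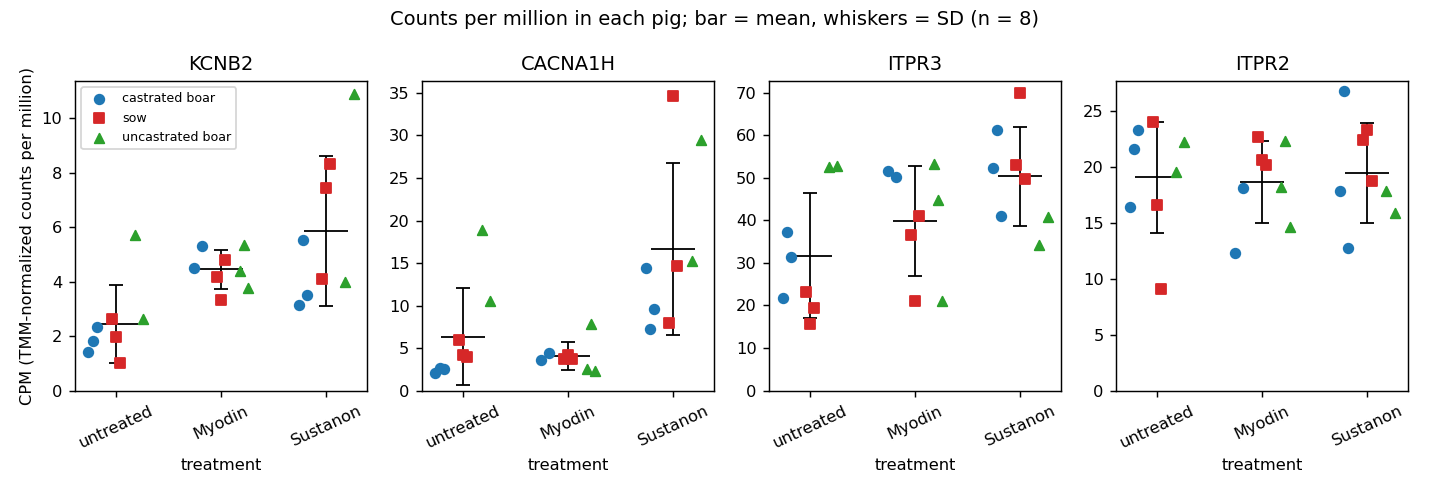
CPM of each gene (vertical axis, from 0) in every pig by treatment (horizontal axis), with castrated boars as circles, sows as squares and uncastrated boars as triangles, and the mean and SD of the 8 pigs in black. The triangles of the untreated group stand above the other untreated pigs for every gene except ITPR2, and CACNA1H in Sustanon sow 5 reaches 34.7 CPM. For KCNB2 the lower triangle (2.64 CPM) all but coincides with untreated sow 16 (2.63 CPM).

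The difference between Sustanon-treated and untreated pigs chose 3 of these genes, so its values are a description. In edgeR's quasi-likelihood fit of the 3 treatments, the log2 fold change was 1.39 for CACNA1H (95% interval 0.55 to 2.23), 1.26 for KCNB2 (0.67 to 1.85), 0.67 for ITPR3 (0.16 to 1.17) and 0.03 for ITPR2 (-0.32 to 0.38). Genes with a log2 fold change of 1 or more in either direction and a Benjamini-Hochberg adjusted p under 0.05 over all tested genes were counted as differentially expressed (DEGs). By this rule 1.56% of all tested genes were DEGs, 1.01% in the direction of higher values, and 2 of the 4 genes, KCNB2 and CACNA1H, were among them. The genes were chosen on this contrast, and nothing is read from that count. In the 24 fits that left out a pig each, KCNB2 was counted in all 24 and CACNA1H in 8, and nothing is read from these counts either. ITPR3 was not counted. Without the 3 libraries that went against their sex label the log2 fold changes were 1.11 for CACNA1H, 1.10 for KCNB2, 0.48 for ITPR3 and 0.01 for ITPR2, and the number of DEGs over all genes went from 129 to 0.

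The same contrast was also described within pigs with and without testes. Among castrated boars and sows alone, the ratio of the Sustanon mean to the untreated mean was 4.15 for CACNA1H, 2.87 for KCNB2, 2.20 for ITPR3 and 1.10 for ITPR2. Among uncastrated boars, with 2 pigs on each side, the same ratios were 1.52, 1.78, 0.714 and 0.808. With a pig left out, the log2 fold change of CACNA1H lay between 1.15 (without Sustanon sow 5) and 1.86 (without untreated boar 25), and that of KCNB2 between 1.07 (without Sustanon boar 20) and 1.56 (without untreated boar 25). All Sustanon pigs lay above all untreated castrated boars and sows for KCNB2 and CACNA1H, a pattern held by 1.87% of all tested genes, and for none of the 4 genes did all Sustanon pigs lie above all untreated pigs, which held for 0.362% of tested genes.

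Myodin was compared with untreated pigs in the same fit, which shares the untreated libraries with the comparison that chose the genes. The log2 fold change was 0.86 for KCNB2 (95% interval 0.27 to 1.46), 0.33 for ITPR3 (-0.17 to 0.84) and -0.65 for CACNA1H (-1.52 to 0.21). ITPR2, which was not chosen for a response, had -0.03 (adjusted p = 0.996 in edgeR, interval -0.39 to 0.32). Without the 3 libraries against their sex label the log2 fold changes were 0.71 for KCNB2, 0.15 for ITPR3, -0.92 for CACNA1H and -0.05 for ITPR2. Of all tested genes 0% were called at an adjusted p under 0.05 by edgeR, against 597 at an unadjusted p under 0.05, while DESeq2 called 1 gene and limma 0. Among castrated boars and sows the Myodin mean of KCNB2 was 2.38 times the untreated mean, and in uncastrated boars 1.08 times. All Myodin pigs lay above all untreated castrated boars and sows for KCNB2, as for 0.266% of tested genes, a description that rests on the untreated libraries of the choice. For CACNA1H the ratio was 1.11 in castrated boars and sows and 0.287 in uncastrated boars.

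Set directly against Myodin, with the Sustanon libraries that had also served to choose the genes, Sustanon gave a log2 fold change of 2.04 for CACNA1H (95% interval 1.18 to 2.90). For KCNB2 it was 0.39 (-0.17 to 0.96) and for ITPR3 0.33 (-0.17 to 0.83), both with intervals that include 0. For ITPR2 it was 0.06 (-0.29 to 0.41, adjusted p = 0.883 in edgeR). With a pig left out, the value of KCNB2 ran from 0.21 to 0.47. CACNA1H was above every Myodin pig in 7 of the 8 Sustanon pigs, KCNB2 in 4, and ITPR3 and ITPR2 in 2. The 2 preparations were given at different doses, 4 and 5 mg/kg, so these differences are between the injections as given and not between the steroids at a matched dose. DEGs made up 0.205% of tested genes in this comparison and 0.664% were called at an adjusted p under 0.05. Leaving out Sustanon castrated boar 2, sow 5, sow 6, boar 20 or Myodin sow 10 brought the number of DEGs from 17 to 0, while leaving out Myodin boar 23 raised it to 115.

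Uncastrated boars and pigs without testes were compared in a fit of 6 groups (treatment by uncastrated boar or not). The contrast left out the Sustanon groups, whose libraries still entered the fit and its estimate of the spread. The untreated pigs of this comparison had also entered the contrast that chose the genes, and the Myodin pigs had not. The averaged values of KCNB2, CACNA1H and ITPR3 are therefore a description. Averaged over the untreated and Myodin groups, with 5 uncastrated boars against 11 other pigs, 5.27% of all tested genes were called at an adjusted p under 0.05, 2.62% higher in uncastrated boars. CACNA1H had a log2 fold change of 1.06 (SE 0.34), and of 1.18 without the 3 libraries against their sex label. ITPR3 had 0.54 (SE 0.21), KCNB2 0.59 (SE 0.27) and ITPR2 0.07 (adjusted p = 0.865 in edgeR). With a pig left out, CACNA1H went as low as 0.67 (without Myodin boar 23) and KCNB2 as low as 0.26 (without untreated boar 25), and with sows left out ITPR3 was at 0.23.

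The groups behind this average were also compared apart. In untreated pigs, both uncastrated boars were above all 6 others for KCNB2, CACNA1H and ITPR3, a pattern shown by 10% of tested genes. For KCNB2, boar 27 (2.64 CPM) was all but level with sow 16 (2.63 CPM), a library against its sex label. The ratio of their mean to that of the others was 4.13 for CACNA1H, 2.24 for KCNB2, 2.13 for ITPR3 and 1.13 for ITPR2. This comparison was added after the values had been seen, and 1.63% of tested genes were called in it, 0.846% higher in boars. It uses untreated libraries on which KCNB2, CACNA1H and ITPR3 were chosen, so their values are a description. CACNA1H had a log2 fold change of 2.04 (SE 0.47). Without boar 25 it was 1.54, without boar 27 it was 2.40, and without the 3 libraries against their sex label it was 2.27. The log2 fold changes were 1.17 for KCNB2 (SE 0.40), 1.09 for ITPR3 (SE 0.31) and 0.18 for ITPR2 (adjusted p = 0.831 in edgeR). That of KCNB2 was 0.49 without boar 25 and 1.61 without boar 27. That of ITPR3 was 0.80 with sows left out.

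In Myodin-treated pigs, with 3 uncastrated boars against 5 others, the log2 fold changes were 0.02 for KCNB2 (95% interval -0.71 to 0.75), 0.08 for CACNA1H (-0.91 to 1.08), -0.01 for ITPR3 (-0.61 to 0.58) and -0.03 for ITPR2 (-0.56 to 0.50). The value of CACNA1H was -0.70 without Myodin boar 23 and 0.37 without Myodin boar 24. Adjusted p values in edgeR were between 0.938 and 0.982, and 2.54% of tested genes were called. The difference between the Myodin and untreated groups was fitted as an interaction, also added after the values had been seen. It uses untreated libraries on which KCNB2, CACNA1H and ITPR3 were chosen, so their values are a description. It was -1.95 for CACNA1H (SE 0.69), -1.15 for KCNB2 (SE 0.54), -1.11 for ITPR3 (SE 0.43) and -0.20 for ITPR2 (adjusted p = 0.865 in edgeR). Without the 3 libraries against their sex label CACNA1H was at -2.19. With a pig left out, the interaction of CACNA1H ran from -2.74 (without Myodin boar 23) to -1.45 (without untreated boar 25) and that of KCNB2 from -1.59 (without untreated boar 27) to -0.48 (without untreated boar 25). After adjustment over all tested genes, of which 0.109% were called, the boar difference was therefore not shown to depend on Myodin for any of them.

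**Figure D2:**
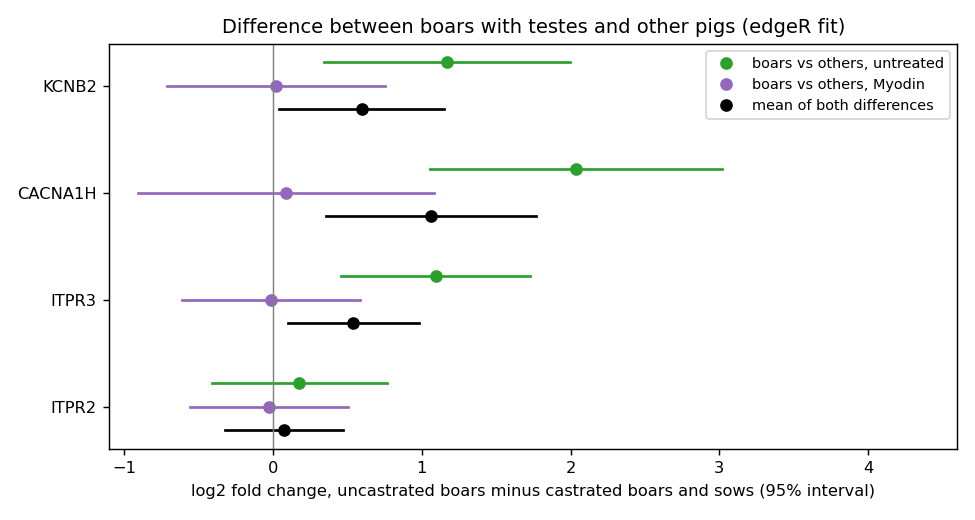
Log2 fold change between uncastrated boars and the other pigs (horizontal axis, 95% intervals) for each gene, in untreated pigs, in Myodin-treated pigs and as the mean of both. Intervals of the untreated pigs lie above 0 for CACNA1H, KCNB2 and ITPR3, whereas those of the Myodin pigs include 0 for all 4 genes.

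The effect of Sustanon in uncastrated boars was compared with that in castrated boars and sows by the same kind of interaction, in which 0.0362% of tested genes were called, none of the 4 genes among them. It uses the libraries on which KCNB2, CACNA1H and ITPR3 were chosen, so their values are a description. ITPR3 had a log2 difference of -1.63 (SE 0.46, 95% interval -2.59 to -0.67). It rested on 2 Sustanon boars (34.3 and 40.8 CPM) and 2 untreated boars (52.6 and 52.7 CPM), whereas the 6 treated castrated boars and sows were all above their 6 untreated counterparts, as 2.04% of tested genes were. CACNA1H had -1.44, KCNB2 -0.70 and ITPR2 -0.44 (adjusted p = 0.855 for ITPR2 in edgeR). The value of KCNB2 ran from -1.59 without Sustanon boar 20 to -0.03 without untreated boar 25. That of CACNA1H ran from -1.99 to -0.94 with a pig left out, and was -0.68 with limma on the deposited log2 values.

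Within the receptor family, the share of ITPR3 in the summed TPM of ITPR2 and ITPR3 of a library was followed. ITPR1 had no row in the tables and is not part of this share. The share was 69.8% ± 3.57 with Sustanon, 63.6% ± 10.3 with Myodin and 58.1% ± 9.60 in untreated pigs (SD, n = 8 each), a description because ITPR3 was chosen on this contrast. The Sustanon pigs were the most alike, from 63.3% to 74.2%, while Myodin pigs ranged from 46.8% to 79.0% and untreated pigs from 44.9% to 70.8%. The untreated boars had 70.8% and 67.1%, and the untreated castrated boars and sows 54.5% ± 8.07 (SD, n = 6). Within the Myodin group, uncastrated boars exceeded the others by 0.657 percentage points (exact two-sided permutation test over 3 against 5 pigs, p = 0.964, where the smallest possible p is 0.0357). With a pig left out, this difference took either sign.

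**Figure D3:**
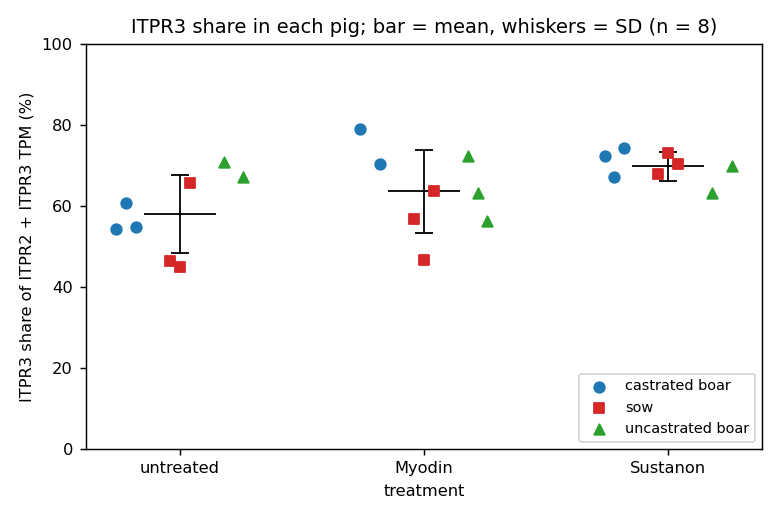
Share of ITPR3 in the summed TPM of ITPR2 and ITPR3 (vertical axis, 0 to 100%) in each pig by treatment, with the mean and SD of 8 pigs in black. The Sustanon pigs lie between 63.3% and 74.2%, and the lowest untreated pig is at 44.9%.

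Bile duct cells are a known site of ITPR3, and 3 of the 7 bile duct markers listed (KRT7, EPCAM and SPP1) were in the tables. Their summed TPM ranged from 16.01 to 54.4 with Sustanon (median 23.9), 18.3 to 27.5 with Myodin (median 23.5) and 25.8 to 47.8 in untreated pigs (median 35.4). All 3 had a log2 fold change below 0 against untreated pigs with Sustanon (median -0.21) and with Myodin (median -0.58), and 0 were called in edgeR, whereas the log2 fold change of ITPR3 was above 0 in both. The untreated boars were at 25.8 and 47.8, and the other untreated pigs at 25.8 to 39.6. For CACNA1H and KCNB2, which are best known from excitable cells, the 2 of 6 skeletal muscle markers in the tables (CKM and MYLPF) summed to 1 to 6.12 TPM with Sustanon (median 2.21), 1.26 to 3.02 with Myodin (median 2.39) and 0.92 to 5.02 in untreated pigs (median 1.92). The 2 of 6 stellate and smooth muscle cell markers in the tables were MYH11 and TAGLN. Their summed TPM was 58.1 to 158 with Sustanon (median 101) and 37.6 to 189 in untreated pigs (median 82.9). With Myodin it was 53.9 to 205 (median 82.0). The group ranges overlapped for each of these lists, and the part of these cells in the values above was not tested.

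Other genes of the same pathways were counted from fixed lists. After Sustanon, 0 of the 44 other list genes that were tested were called higher and 4 were called lower, against 3.39% and 1.68% of all tested genes. KCNQ3, a potassium channel subunit of the M-current, was lower at 1.40 ± 0.435 against 3.86 ± 2.24 CPM (log2 fold change -1.46, SE 0.37, adjusted p = 0.0236 in edgeR). It was the only call among 9 other tested genes of voltage-gated potassium channels, whose median log2 fold change was -0.23 beside -0.01 for all genes. PLCG2, a phospholipase that produces inositol trisphosphate, was lower at 14.8 ± 5.19 against 32.7 ± 14.6 CPM (-1.14, SE 0.25, adjusted p = 0.0129). CALM3, a calmodulin gene, was lower at 73.0 ± 17.1 against 115.5 ± 21.8 CPM (-0.66, SE 0.15, adjusted p = 0.0161). ORAI3, a store-operated calcium channel subunit, was lower at 23.9 ± 4.65 against 36.4 ± 11.4 CPM (-0.60, SE 0.17, adjusted p = 0.0395; SD, n = 8 for each of these means). The calls of PLCG2 and CALM3 were held in all 24 fits that left out a pig each, that of KCNQ3 in 22 and that of ORAI3 in 16. All of these calls were lost without the 3 libraries against their sex label (adjusted p between 0.116 and 0.147).

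PLCG2, CALM3 and ORAI3 were the calls among 19 other tested genes of inositol trisphosphate signalling and endoplasmic reticulum calcium, with a list median of -0.03. The most abundant genes of these lists were TMBIM6, a membrane protein of the endoplasmic reticulum (1399 TPM on average over the 24 libraries), CALR, the calcium-binding chaperone calreticulin (984 TPM), and ERP44, a redox chaperone that binds the type 1 receptor (136 TPM). Their log2 fold changes with Sustanon were -0.33, 0.00 and 0.20, and none was called (adjusted p 0.120, 0.994 and 0.157 in edgeR). None was called among 4 other voltage-gated calcium channel genes (median -0.17) and 12 genes of plasma membrane and mitochondrial calcium transport (median 0.07).

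**Figure D4:**
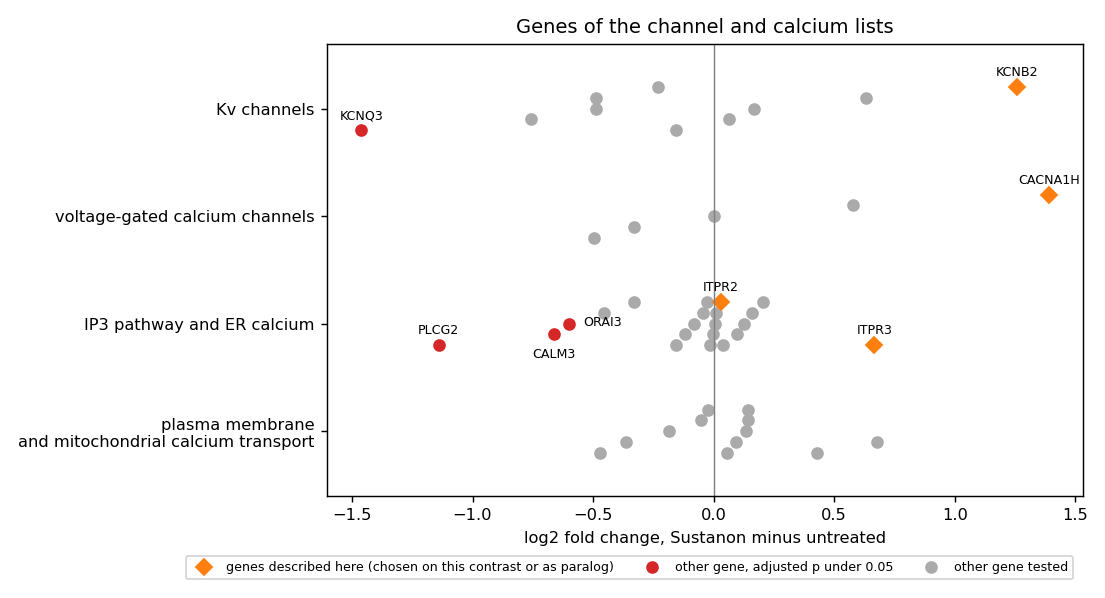
Log2 fold change of Sustanon-treated against untreated pigs (horizontal axis) for the tested genes of 4 lists (rows; the height within a row only separates points). Diamonds are the 4 genes described here, and the other genes called at an adjusted p under 0.05 (KCNQ3, PLCG2, CALM3 and ORAI3) all lie below 0.

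In Myodin-treated against untreated pigs, 0 of the 44 other list genes were called, beside 0% of all tested genes, and in Sustanon against Myodin 0 of 44, beside 0.664%. In uncastrated boars against the other pigs without Sustanon, 3 were called, all lower in boars, against 2.65% of all tested genes called lower. They were TRPM6, a magnesium channel (log2 fold change -1.14, SE 0.25, adjusted p = 0.0107 in edgeR), PLCG2 (-0.95, SE 0.23, adjusted p = 0.0170) and CACNA2D1, an accessory subunit of calcium channels (-0.71, SE 0.18, adjusted p = 0.0225). Without untreated boar 27 all 3 calls were lost (adjusted p between 0.107 and 0.143 in edgeR), those of PLCG2 and CACNA2D1 also without untreated boar 25, and that of CACNA2D1 also without Myodin boar 24. Among untreated pigs, PLCG2 had a mean of 16.5 CPM in uncastrated boars and 38.1 CPM in the others. It was not called in untreated pigs alone (adjusted p = 0.0866 in edgeR) or in Myodin pigs alone (adjusted p = 0.187 in edgeR). The untreated castrated boars and sows stand on the higher side of the boar comparison and of the Sustanon comparison, so that the calls of PLCG2 share samples. In Myodin pigs alone, TRPM4, a calcium-activated cation channel, was lower in uncastrated boars (-1.19, SE 0.31, adjusted p = 0.0446 in edgeR), where 1.03% of all tested genes were called lower. This call was held in 12 of 24 fits that left out a pig each and was lost without the 3 libraries against their sex label (adjusted p = 0.0602 in edgeR). In untreated pigs alone, TRPM4 had a log2 fold change of 0.03 (adjusted p = 0.982 in edgeR). There 0 of the 44 list genes were called, beside 1.63% of all tested genes.

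Across the 24 libraries, KCNB2 followed ITPR3 (Pearson r = 0.659 of log2 CPM) and CACNA1H (0.614) most closely among the 4 genes. ITPR2 had values between 0.144 and 0.359 with the others. All of these points share the treatment groups, and for 3 genes the choice on the Sustanon contrast. After the means of the 6 groups were taken out, KCNB2 had 0.519 with CACNA1H and 0.396 with both ITPR3 and ITPR2. CACNA1H and ITPR3 went from 0.516 to 0.108.

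The genes whose log2 CPM ran most alike over the 24 libraries were PPL (r = 0.798), ZDHHC14 (0.773) and TERF2 (0.773) for KCNB2, and ASB4 (0.852), B3GNT8 (0.823) and TMEM184A (0.800) for CACNA1H. For ITPR3 they were PPL (0.809), ANO1 (0.805), a calcium-activated chloride channel gene, and STARD10 (0.753). For ITPR2 they included PLG (0.736), the plasminogen gene of hepatocytes, and ZNF609 (0.703). PPL was thus named for both KCNB2 and ITPR3. By the paper, PPL, TERF2, ASB4 and B3GNT8 belong with KCNB2, CACNA1H and ITPR3 to the panel it selected by clustering its RNAseq data. That panel was picked to separate treated from control pigs, so these likenesses are not independent of that choice. On deviations from the 6 group means, PLG stayed with ITPR2 (0.856), followed by CD36 (0.831) and UGP2 (0.821). The other names changed, to TNFRSF21 (0.768), FEM1B (0.756) and CBFB (0.730) for KCNB2, RFX2 (0.818), DIAPH1 (0.817) and MAPK1IP1L (0.813) for CACNA1H, and SBNO2 (0.828), ZNF200 (0.825) and BAZ2A (0.801) for ITPR3. These are descriptions over libraries that share groups and depth, picked as the highest of all tested genes.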

How the data were processed

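Liver RNAseq data of 24 pigs were used, grouped by the treatment and sex in the labels. Libraries were stranded and made by the authors from poly-A RNA. Skewer trimming and alignment were run in docker4seq, and the submitters' processing notes name STAR 2.5, FastQC, DESeq2 and Sscrofa11.1. The counting step is not given in the sources used here. Deposited were raw counts per gene and log2(TPM + 1) values (pseudocount 1), in which 329 cells have a count of 0 and a TPM above 0. Of the 13463 genes, 3779 had no symbol, and 359 of these were named from the reference table of gene names.

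The counts were tested two-sided by the quasi-likelihood method of edgeR 4.0.16 in R 4.3.3, after filterByExpr by treatment and TMM normalization, in a fit of 3 treatments and a fit of 6 groups (treatment by uncastrated boar or not), with Benjamini-Hochberg adjustment over 8279 genes. Log2 CPM had a prior count of 2. Alternatives were DESeq2 1.42.0, limma 3.58.1 on the deposited log2 values (mean TPM of at least 1), RLE normalization, no count filter, no fold threshold, labelled sex as a covariate, sows left out, libraries left out, and each pig in turn. The lowest chi-square per degree of freedom between any of the 276 pairs of libraries was 24.3, so none was a repeat of another. The labels give pigs, not further batches, and scripts were tested on simulated data.

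The genes described and the gene lists were chosen with earlier results of these data known. Named were the genes described, list genes called in any comparison, the 3 most abundant list genes, and for each gene the 3 with the highest Pearson correlation, over libraries and over deviations from group means. Precision is limited by the number of pigs and by low counts. A further chosen gene, and values of some list, marker and correlated genes, are not reported here. PCR, serum and slaughterhouse data were not used here.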

Additional observations from a re-analysis of the deposited data

Results flagged for a closer look

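ITPR2 in untreated sow 18 was at 9.05 CPM, far below the other 7 untreated pigs on the log2 scale. This is 1 of the libraries whose EIF1AY counts went against the labelled sex. Its gap to the nearest of them, as a share of the range of the group, was above Dixon's 95% critical value, and 27 groups of values were examined in this way. By the construction of that critical value, chance marks about 1 in 20 groups. Without this library and the other 2 that went against their sex label, the log2 fold change of ITPR2 with Sustanon was 0.01.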

How the results depend on the processing

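No fold change of the 4 genes that was past its threshold turned its sign in any alternative. These folds belong to KCNB2 and CACNA1H, in the comparison that chose them or in ones that share its libraries. A kept sign is therefore a description. Without the 3 libraries against their sex label, neither gene was counted with Sustanon against untreated pigs. The numbers of DEGs over all genes moved far more, and the cause was not tested. With Sustanon against untreated pigs there were 129, and 420 with no fold threshold, 0 without the 3 libraries against their sex label, and 70 to 175 with a pig left out. With Sustanon against Myodin there were 17, and 55 with no fold threshold, 72 with DESeq2, 11 with no count filter, 8 without the 3 libraries, 96 with sex as a covariate, and 0 to 115 with a pig left out. Myodin against untreated gave 0 in each fit with a pig left out. Uncastrated boars against the others without Sustanon gave 101, and 436 with no fold threshold, 15 with sows left out, and 43 to 176 with a pig left out (43 without untreated boar 27, 45 without untreated boar 25 and 176 without Myodin boar 22). In Myodin pigs alone there were 107, and 210 with no fold threshold, 196 with DESeq2, 46 with limma, and 1 (without Myodin boar 23) to 418 (without Myodin boar 22) with a pig left out. In untreated pigs alone there were 73, and 135 with no fold threshold, 132 with DESeq2, 47 without castrated boar 15, 22 without the 3 libraries, 37 with sows left out, and 7 to 86 with a pig left out. The Sustanon interaction gave 3, and 33 with DESeq2, 0 with sows left out, and 0 to 5 with a pig left out. The Myodin interaction gave 9, and 79 with DESeq2, 14 with limma, 3 without the 3 libraries, 1 with sows left out, and 2 to 170 with a pig left out. In the ITPR subtype make-up, the difference of the ITPR3 share between Myodin boars and the other Myodin pigs went from -3.55 to 4.57 percentage points with a pig left out.

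For the genes themselves, limma on the deposited log2 values gave lower Sustanon folds (KCNB2 0.87, CACNA1H 0.93, and CACNA1H 1.18 against Myodin), as a pseudocount of 1 shrinks low values by construction. Without untreated boar 25 the Myodin folds were 1.18 for KCNB2 and -0.16 for CACNA1H. The untreated boars were 2 pigs, so that each comparison with boars rests on few animals. No paired analysis was possible because every pig has a number of its own and no number is shared between groups.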
